A study of Homo sapiens with 6 samples.

Results

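Genes for the enzymes that write and erase acetyl and methyl groups on histones, together with the sirtuins, were examined with and without amiodarone in HL-60, a long-established line of human promyelocytic leukaemia cells. Members were the rows whose gene symbol is KDM, KMT, KAT, HDAC, SIRT, SETD or PRMT followed by a number, together with SETDB1, SETDB2, EZH1, EZH2, SUZ12, EED, EP300 and CREBBP, which gave 76 of the 17911 genes in the table. The comparison was of 3 RNA-seq libraries of HL-60 cells given 10 uM amiodarone, an antiarrhythmic cationic amphiphilic drug, for 24 h with 3 libraries of HL-60 cells labelled control. No vehicle is named for the controls, and all libraries come from the same line, and since separate cultures are not documented, the spread behind each p-value may be technical. The study's title presents amiodarone as an activator of SIRT3, one of the 76 genes. Values are given as deposited. Their unit is not stated, and they are treated as RPKM-like, that is, as scaled by gene length and by depth.

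Lysine acetylation of histone tails loosens nucleosome packing and recruits bromodomain readers. It is added by acetyltransferases (KAT, p300, CBP) and removed by zinc-dependent deacetylases (HDAC) and by the NAD-dependent sirtuins. Lysine methylation has a meaning that depends on the residue: H3K4 methylation marks promoters and enhancers, H3K36 methylation marks transcribed gene bodies, and H3K9, H3K27 and H4K20 methylation mark silent or compacted chromatin. It is written by SET domain enzymes and erased by KDM1 amine oxidases or JmjC dioxygenases, while PRMT enzymes methylate arginines of histones and of many RNA-binding proteins. KMT2A is rearranged, and EZH2, KDM6A and CREBBP are mutated, in blood cancers, and KDM1A, EZH2 and HDAC inhibitors are used or tested against it. RNA levels were measured here, and neither enzyme activity nor histone marks were.

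Sequences of the PRC2 promoters are shown because the members of this complex parted in their response. PRC2 is the methyltransferase of H3K27, and its core includes EZH2 or its relative EZH1 with EED and SUZ12. Each line gives 300 bases, from 250 before to 50 after the gene start, 5′ to 3′ on the gene's strand (RefSeq, GRCh38.p14). The capitals mark an E2F word, one of TTTCCCGC, TTTGGCGC, TTTGCCGC and TTTCGCGC on either strand, E2F being the factor family of S phase genes. The EZH2 window is chr7:148884242-148884541 on the minus strand, that of EZH1 chr17:42744991-42745290 on the minus strand, that of SUZ12 chr17:31936757-31937056 on the plus strand and that of EED chr11:86244503-86244802 on the plus strand.
EZH2: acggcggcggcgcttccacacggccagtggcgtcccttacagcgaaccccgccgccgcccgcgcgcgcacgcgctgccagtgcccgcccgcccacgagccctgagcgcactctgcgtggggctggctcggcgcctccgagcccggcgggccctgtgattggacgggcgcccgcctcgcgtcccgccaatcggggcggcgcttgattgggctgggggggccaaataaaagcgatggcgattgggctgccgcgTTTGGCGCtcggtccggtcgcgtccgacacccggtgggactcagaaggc
EZH1: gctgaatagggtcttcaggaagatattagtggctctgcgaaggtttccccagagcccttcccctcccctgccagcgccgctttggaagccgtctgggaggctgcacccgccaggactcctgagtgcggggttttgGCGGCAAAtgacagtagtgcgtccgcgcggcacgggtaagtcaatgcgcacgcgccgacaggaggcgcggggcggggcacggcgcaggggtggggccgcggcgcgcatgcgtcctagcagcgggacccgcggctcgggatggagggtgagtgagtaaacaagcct
SUZ12: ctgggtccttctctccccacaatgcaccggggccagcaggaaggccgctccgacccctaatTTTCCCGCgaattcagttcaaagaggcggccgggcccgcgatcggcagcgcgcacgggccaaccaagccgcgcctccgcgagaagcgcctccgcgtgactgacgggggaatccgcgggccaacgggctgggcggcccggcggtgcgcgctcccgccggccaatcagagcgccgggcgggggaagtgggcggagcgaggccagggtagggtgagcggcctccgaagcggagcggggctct
EED: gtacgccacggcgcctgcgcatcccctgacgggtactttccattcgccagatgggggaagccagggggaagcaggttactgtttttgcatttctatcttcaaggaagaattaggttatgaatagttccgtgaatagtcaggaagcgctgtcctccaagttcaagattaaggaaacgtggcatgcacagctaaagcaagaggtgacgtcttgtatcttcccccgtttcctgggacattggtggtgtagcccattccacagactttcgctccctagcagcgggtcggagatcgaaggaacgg

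The EZH2 window holds 1 E2F word, beginning at base 252, and 4 matches to CCAAT on either strand. EZH1 and SUZ12 also hold 1 E2F word each and EED holds none. Promoters were found for 71 of the 76 members, and 5 of these 71 (7.04%) hold an E2F word, against 5.76% of 9354 promoters of tested genes and 3.33% of all 27305 promoters. Among members called lower after amiodarone, 2 of 35 promoters (5.71%) hold one, against 6.86% of the promoters of all genes called lower. Among members called higher 0 of 17 do, against 4.96% for all genes called higher. The plain word CCAAT occurs in 17 of 35 promoters of members called lower (48.6%) and in 3 of 17 of members called higher (17.6%), where 38.7% and 34.9% of the promoters of all genes called in those directions have it. Over all members CCAAT is found in 25 of 71 promoters (35.2%), close to the 37.0% of promoters of all tested genes and the 35.7% of all promoters. TGATGCAA, a C/EBP and ATF word, is in 0 member promoters, and in 0.524% of those of all tested genes and 0.923% of all promoters. These matches describe letters in a window, without a measure of binding.

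Of the 76 members, 71 passed the filter, which asked for 3 or more libraries at a value of 1 or higher, and all 71 had a value of at least 1 in all 6 libraries. Amiodarone libraries had lower values for 39 of the 71 and higher values for 17 at an adjusted p under 0.05 (limma on log2(value + 1), adjusted over 11445 tested genes), and 15 were not called. That is 78.9% of the members called, against 78.3% of all tested genes. Called lower were 54.9% of the members against 44.8% of all tested genes, and called higher 23.9% against 33.5%. The median log2 fold change was -0.17 over the 71 members and -0.06 over all tested genes. Most changes were small: 45 of the 56 called members differed by under 1.5-fold. Called with at least 1.5-fold were 15.5% of the members, against 21.1% of all tested genes. No tested member reached 2-fold on this scale, and the share of all tested genes that did was not counted. By the ratio of means, SETD6 (0.481), PRMT6 (0.484) and KDM7A (2.04) passed 2-fold. The groups did not overlap in 61 of the 71 members (85.9%), against 79.3% of all tested genes.

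At least 1.5-fold lower on the log2(value + 1) scale were 10 members (14.1%, against 12.0% of all tested genes), namely PRMT6, KMT2D, SETD6, EZH2, KMT5C, KDM1A, HDAC1, SETD1B, PRMT7 and KDM2B. Only KDM7A was higher by that margin among the 71 (1.41%, against 9.07% of all tested genes). In either direction that is 11 members (15.5%, against 21.1% of all tested genes). The balance of directions moves with the scaling, for the members and for all tested genes alike. Under median-of-ratios scaling 22 members were called higher and 34 lower, where 39.3% of all tested genes were higher and 38.9% lower. After scaling to equal sums 11 members were higher and 45 lower, where 27.1% of all tested genes were higher and 51.6% lower. These scalings place the median log2 fold change of all tested genes at 0.003 and -0.145, so small changes are read relative to that range.

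**Figure D1:**
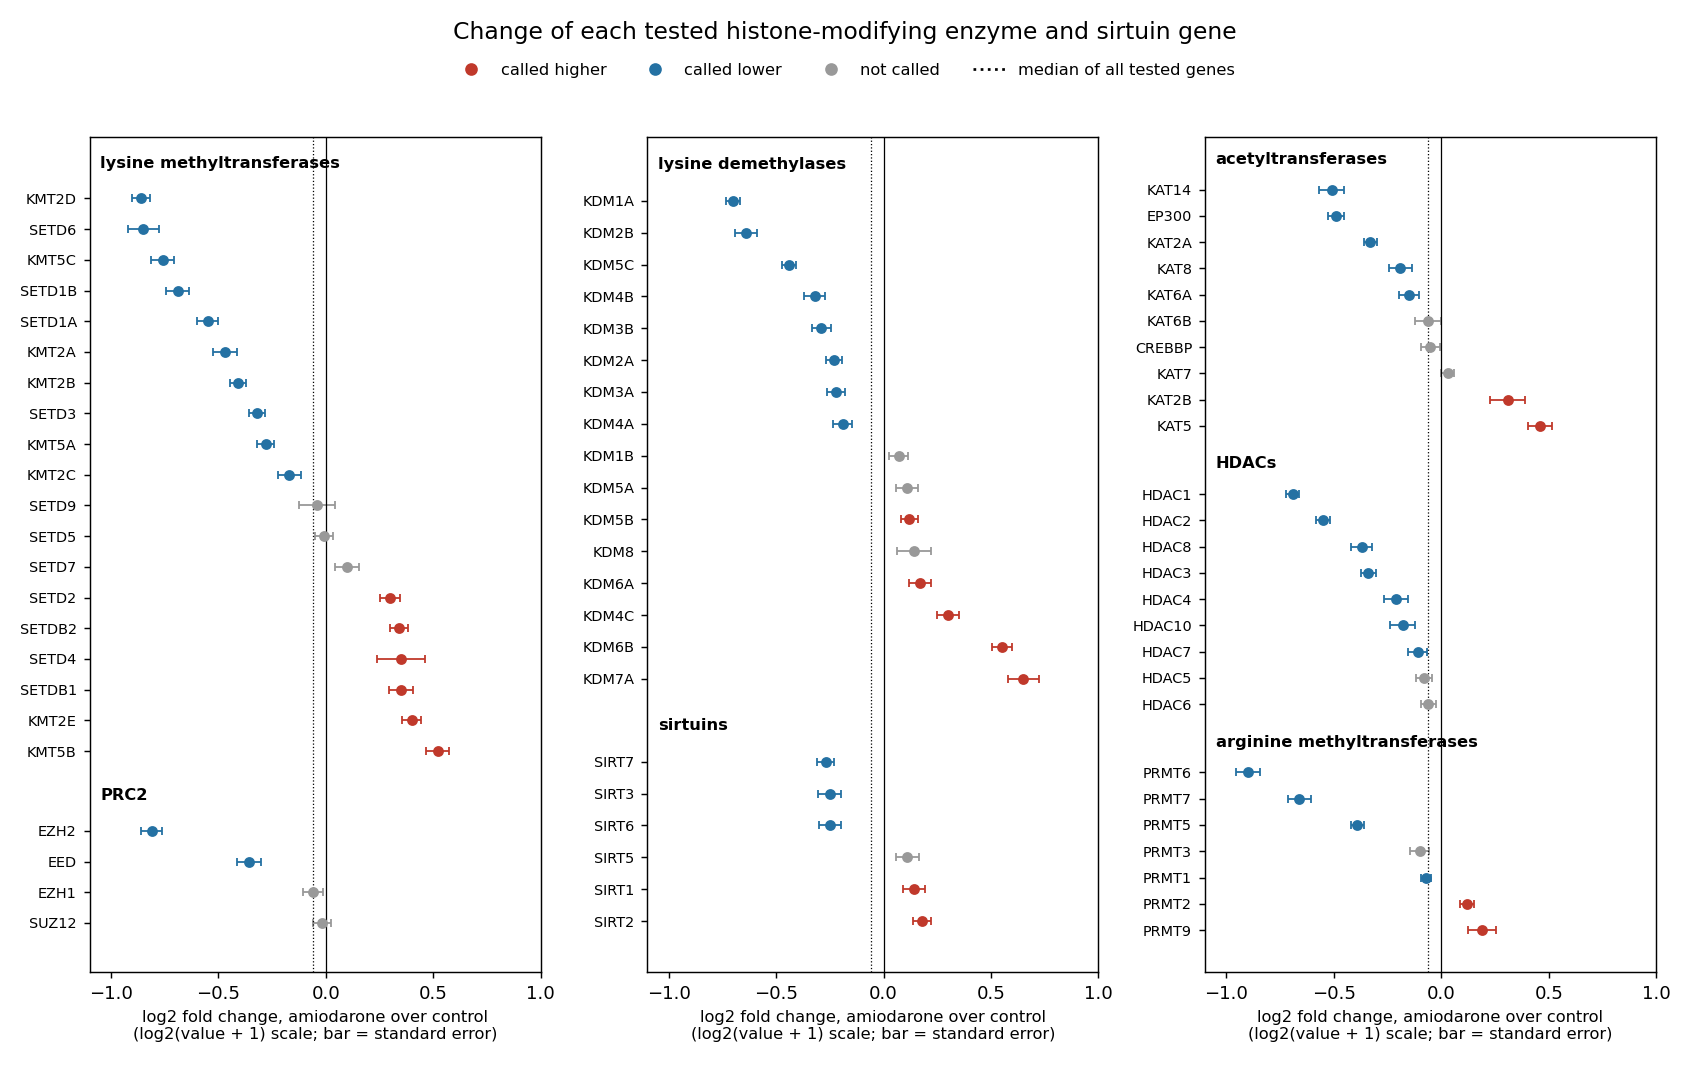
Log2 fold change of each of the 71 tested members, amiodarone over control, by enzyme class, with its standard error. The horizontal axis is the log2(value + 1) scale and colour gives the call. Values run from -0.90 for PRMT6 to 0.65 for KDM7A, and all 9 HDAC genes lie left of 0 with the values as deposited.

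Markers of the labelled cell type were present. All 7 promyelocyte markers listed passed the filter. MPO, the myeloperoxidase gene, stood at 2613 ± 28.4 after amiodarone and 5962 ± 43.7 in controls (SD, n = 3 each), and CD33 at 95.5 ± 3.55 and 91.7 ± 2.12. Markers of 6 other cell types, 19 rows in all, summed to 19.1 to 19.7 in amiodarone libraries and 20.1 to 22.0 in controls, 12 of these rows stayed below 1 in every library and 0 rows were at 0 in all of them. The 5 granule protein genes of the promyelocyte list were called lower, where 44.8% of all tested genes were. CD33 was not called, and MYB, a progenitor transcription factor, was called higher at 124 ± 3.64 after amiodarone and 112 ± 0.873 in controls. The promyelocyte list summed to 3120 to 3178 after amiodarone and 6949 to 7071 in controls, and most of each sum was MPO. All 16 S phase genes of a comparison list were lower by at least 1.5-fold, against 12.0% of all tested genes. Their median log2 fold change was -1.55, and the list was chosen with earlier results of these data known. Among them were PCNA (55.3 ± 0.211 after amiodarone, 201 ± 6.17 in controls) and MCM4 (15.7 ± 0.192 and 60.7 ± 0.891). The part that the share of cycling cells or the granule programme has in the values of the histone-modifying enzymes was not tested. In bulk RNA, fewer cells expressing a gene and less RNA of it per cell cannot be told apart.

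PRC2 changed in its catalytic subunit and in EED but not detectably in SUZ12 or EZH1. EZH2, the main catalytic subunit in dividing cells, had values of 11.4, 12.2 and 12.7 in amiodarone libraries and 23.2, 21.5 and 21.2 in controls. No amiodarone library came near the control range, and the ratio of means was 0.552 (log2 fold change -0.81, SE 0.049, limma adjusted p = 6.53e-08). EED, which reads H3K27me3 and stimulates the enzyme, stood at 6.88, 7.32 and 7.90 after amiodarone and 9.90, 9.24 and 10.0 in controls, a lower level without overlap (log2 fold change -0.36, SE 0.056, limma adjusted p = 0.000137). EZH1, the form prevalent in resting cells, had 16.7, 17.1 and 18.2 after amiodarone and 18.4, 18.7 and 17.2 in controls, with overlapping groups and no call (log2 fold change -0.06, SE 0.046). SUZ12, the scaffold, had 25.2, 28.3 and 26.5 after amiodarone and 27.5, 26.8 and 26.8 in controls, also overlapping (log2 fold change -0.02, SE 0.042). Scaling to equal sums would call EZH1 and SUZ12 lower as well (-0.14 and -0.11), whereas median-of-ratios scaling puts them at 0.01 and 0.05.

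The EZH2 to EZH1 ratio within a library does not depend on scaling. It was 0.684, 0.713 and 0.702 in amiodarone libraries and 1.26, 1.15 and 1.24 in controls. The EZH2 value thus exceeded that of EZH1 in each control library and was below it in each amiodarone library. Which RNA is more abundant follows from this only if the values are scaled by length. The EZH2 to EZH1 ratio is 1 of 14 ratios of related members compared, a set put together after the values were seen. In 13 of the 14 the groups did not overlap. No such share over all pairs of genes was computed, and 79.3% of single tested genes did not overlap. Each of the 13 had an exact two-sided permutation p of 0.1 (0.108 after Benjamini-Hochberg adjustment). This is the smallest that 3 against 3 libraries can give, so the test cannot decide on any pair and the ratios are given as description.

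**Figure D2:**
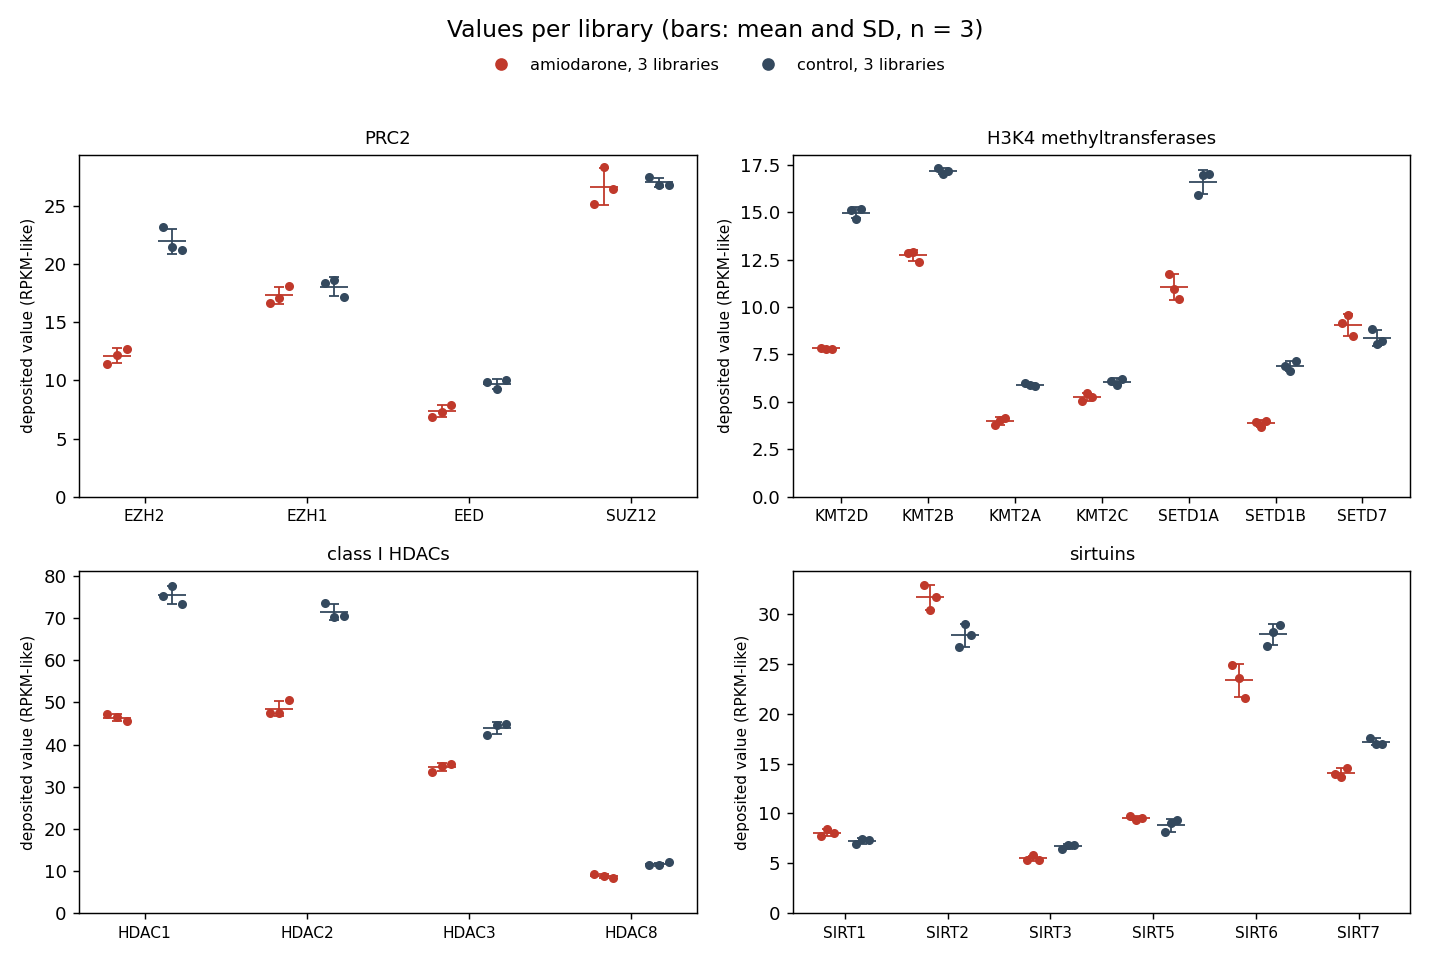
Deposited values (RPKM-like, linear axis from 0) of the PRC2 genes, the H3K4 methyltransferases, the class I HDACs and the tested sirtuins in 3 amiodarone and 3 control libraries. Dots are libraries and bars the mean with SD. EZH2, KMT2D, HDAC1 and HDAC2 show gaps far wider than the spread within a group, and SUZ12, EZH1, SETD7 and SIRT5 overlap.

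Among the H3K4 methyltransferases, 6 of 7 were lower (85.7%, against 44.8% of all tested genes) and SETD7 had no call, and their median log2 fold change was -0.47. KMT2D, a large enzyme that methylates H3K4 at enhancers, stood at 7.86, 7.81 and 7.78 in amiodarone libraries and 15.1, 14.6 and 15.2 in controls. That is 0.522 times the control mean, with almost no spread after amiodarone (log2 fold change -0.86, SE 0.041, limma adjusted p = 9.07e-09). In GENCODE 29 (GRCh38) KMT2D occupies bases 49018975 to 49059774 of chromosome 12, minus strand. Its close relative KMT2C was lower by less, at 5.27 ± 0.205 after amiodarone and 6.07 ± 0.165 in controls, and its call (log2 fold change -0.17) ended under median-of-ratios scaling. The KMT2D to KMT2C ratio was 1.55, 1.43 and 1.48 after amiodarone and 2.49, 2.48 and 2.44 in controls.

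The promoter H3K4 enzymes moved the same way. SETD1B, a catalytic subunit of the COMPASS complexes that place most H3K4me3, had 3.96, 3.67 and 4.01 in amiodarone libraries and 6.91, 6.61 and 7.15 in controls (log2 fold change -0.69, SE 0.055, limma adjusted p = 5.90e-07). Its twin SETD1A was lower at 11 ± 0.674 after amiodarone against 16.6 ± 0.627 in controls. KMT2A, the gene rearranged in mixed-lineage leukaemia, stood at 4.0 ± 0.190 after amiodarone and 5.90 ± 0.0889 in controls, with 17.9% of its exonic bases shared with another annotated gene on the same strand. KMT2B stood at 12.7 ± 0.289 and 17.2 ± 0.15. SETD7, a monomethyltransferase with many non-histone substrates, had 9.07 ± 0.574 after amiodarone and 8.38 ± 0.427 in controls. Under median-of-ratios scaling SETD7 was called higher (0.17) and 5 of the 7 lower, where 38.9% of all tested genes were lower.

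Writers of the other lysine marks went in both directions. H4K20 enzymes parted: KMT5C, which makes H4K20me3, was at 4.93, 4.65 and 4.79 in amiodarone libraries and 8.87, 9.26 and 8.34 in controls (log2 fold change -0.76, SE 0.053, limma adjusted p = 2.01e-07). KMT5B, which makes H4K20me2 over most of the genome, was higher, at 14.5 ± 0.811 after amiodarone and 9.84 ± 0.622 in controls (log2 fold change 0.52). The KMT5B to KMT5C ratio was 2.83, 3.32 and 2.95 after amiodarone and 1.13, 0.989 and 1.24 in controls. KMT5A, the monomethylase whose protein is destroyed in S phase, was lower, at 17 ± 0.353 and 20.8 ± 0.819.

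Both H3K9 methyltransferases among the members were higher. SETDB1, which silences retroelements, stood at 17.6 ± 0.191 after amiodarone and 13.7 ± 1.22 in controls, and SETDB2 at 10.1 ± 0.168 and 7.80 ± 0.164. Their ratio overlapped between the groups (1.74 ± 0.0380 after amiodarone, 1.75 ± 0.178 in controls, exact permutation p = 1.0). A separate row for the SETDB2-PHF11 readthrough, which shares exons with SETDB2 and is no member, was also higher (6.89 ± 0.535 after amiodarone, 3.66 ± 0.177 in controls), so the split of reads between these rows is uncertain. SETD2, the H3K36 trimethylase and a tumour suppressor in leukaemia, was higher at 10.3 ± 0.386 against 8.18 ± 0.188, and KMT2E, a SET domain protein without known histone methyltransferase activity, at 14.2 ± 0.505 against 10.5 ± 0.321 in controls.

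Among the remaining SET domain genes are enzymes with non-histone substrates. SETD6, which methylates the NF-kB subunit RelA, stood at 3.09, 2.76 and 3.24 in amiodarone libraries and 6.65, 6.60 and 5.63 in controls. It had the lowest ratio of means of the tested members at 0.481 (log2 fold change -0.85, SE 0.073, limma adjusted p = 1.00e-06), with 21.4% of its exonic bases opposite CNOT1. SETD3, the actin histidine methyltransferase, was lower at 18.6 ± 0.479 against 23.4 ± 0.676 in controls. SETD4 was called higher (6.85 ± 0.994 after amiodarone, 5.17 ± 0.979 in controls) although its groups overlapped, and the call ended without amiodarone replicate 1 (limma adjusted p = 0.0649), without control replicate 2 (0.0587) or without the filter (0.0569). SETD5 and SETD9 were not called, at 23.4 ± 0.935 against 23.5 ± 0.862 and 1.64 ± 0.201 against 1.70 ± 0.212 in controls.

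Of 16 tested lysine demethylases 8 were lower and 5 higher, near the 44.8% and 33.5% of all tested genes. Their median log2 fold change of -0.06 equalled that of all tested genes and was 0.01 under median-of-ratios scaling. KDM1A (LSD1), a flavin enzyme that removes mono- and dimethyl H3K4 within the CoREST complex and holds back myeloid differentiation, stood at 24.8, 25.1 and 25.6 in amiodarone libraries and 41.8, 42.0 and 41.0 in controls. The groups were far apart for its small spread (ratio 0.605, log2 fold change -0.70, SE 0.031, limma adjusted p = 4.69e-09). Its relative KDM1B was not called, at 14.8 ± 0.659 after amiodarone and 14.0 ± 0.489 in controls. The KDM1A to KDM1B ratio was 1.70 ± 0.0644 after amiodarone and 2.97 ± 0.101 in controls.

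Lower JmjC enzymes included several that act on active marks. KDM2B, which binds unmethylated CpG islands and recruits a variant Polycomb complex, had 8.10, 8.60 and 7.97 in amiodarone libraries and 12.8, 14.1 and 13.3 in controls (log2 fold change -0.64, SE 0.049, limma adjusted p = 4.19e-07). KDM5C, an X-linked H3K4me3 demethylase, had 16.7, 16.5 and 16.3 after amiodarone and 22.7, 23.1 and 22.5 in controls (log2 fold change -0.44, SE 0.034, limma adjusted p = 4.57e-07). The other lower ones were smaller changes: KDM4B at -0.32, KDM3B at -0.29, KDM2A at -0.23, KDM3A at -0.22 and KDM4A at -0.19 in log2 fold change, where KDM4A shares 40.2% of its exonic bases with another annotated gene on the same strand. KDM3A and KDM3B remove H3K9me1 and H3K9me2, and KDM4A and KDM4B remove H3K9me3 and H3K36me3.

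The higher demethylases included KDM6B and KDM6A, erasers of H3K27me3, the mark that PRC2 writes. KDM6B (JMJD3), an inducible enzyme of macrophage activation, had 15.6, 14.2 and 14.8 in amiodarone libraries and 9.84, 9.56 and 10.1 in controls. All amiodarone libraries were above the controls (ratio 1.51, log2 fold change 0.55, SE 0.046, limma adjusted p = 8.51e-07). KDM6A (UTX), its X-linked relative, was higher by a small margin, at 6.58 ± 0.116 after amiodarone and 5.73 ± 0.215 in controls, and this call ended after scaling to equal sums (log2 fold change 0.10, limma adjusted p = 0.107). KDM7A, which removes H3K9me2 and H3K27me2, was low in level but had the largest log2 fold change upward of the tested members, with 2.33, 2.49 and 2.71 after amiodarone and 1.31, 1.25 and 1.13 in controls (log2 fold change 0.65, SE 0.071, limma adjusted p = 7.23e-06). KDM4C (0.30) was higher, as was KDM5B (0.12), whose call ended after scaling to equal sums and without amiodarone replicate 2 or control replicate 3. KDM5A and KDM8 were not called, with log2 fold changes of 0.11 and 0.14.

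**Figure D3:**
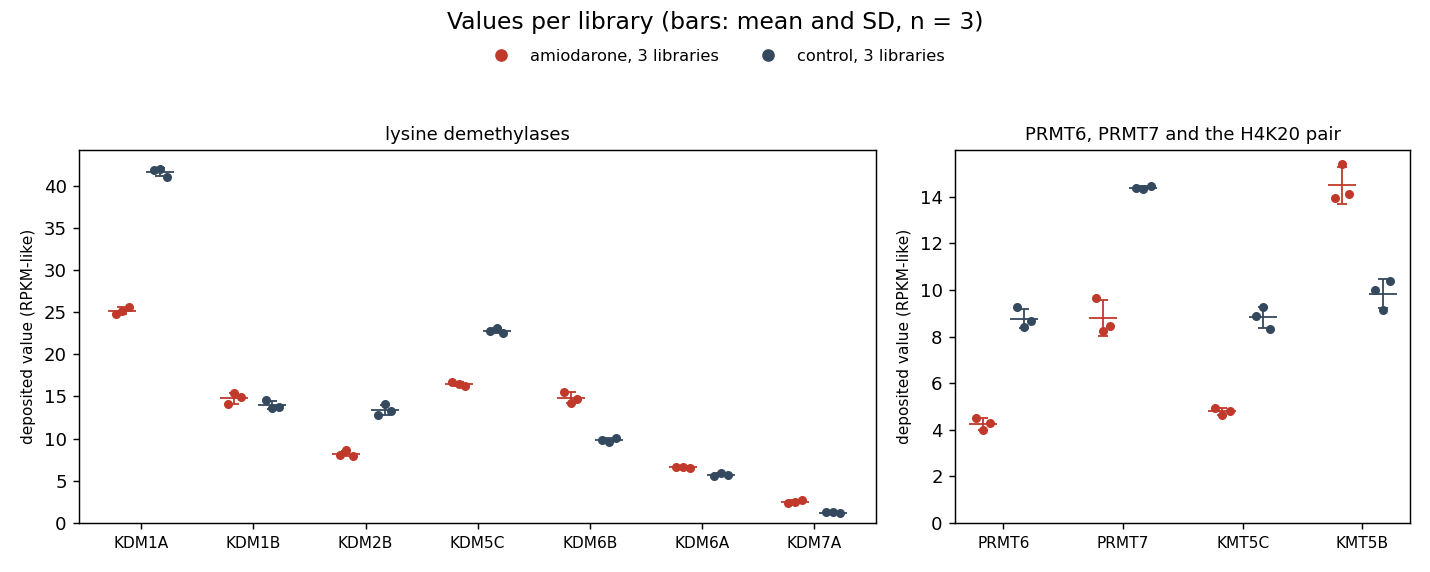
Deposited values (RPKM-like, linear axis from 0) of 7 demethylase genes and of PRMT6, PRMT7, KMT5C and KMT5B in 3 amiodarone and 3 control libraries, with the mean and SD. KDM1A, KDM2B and KDM5C are lower and KDM6B and KDM7A higher after amiodarone, without overlap, and KDM1B overlaps.

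Among 10 acetyltransferases 5 were lower, 2 higher and 3 had no call, which is near the 44.8% lower and 33.5% higher of all tested genes, and the median log2 fold change was -0.10. EP300, a broad coactivator acetylase of H3K18 and H3K27, had 11.2, 11.1 and 11.3 in amiodarone libraries and 16.1, 15.7 and 16.4 in controls (log2 fold change -0.49, SE 0.039, limma adjusted p = 5.98e-07). Its paralogue CREBBP, at 7.56 ± 0.0850 after amiodarone and 7.84 ± 0.236 in controls, was not called (limma adjusted p = 0.373). The EP300 to CREBBP ratio was 1.46, 1.48 and 1.49 after amiodarone and 2.07, 1.93 and 2.14 in controls. KAT2A (GCN5), the acetylase of the SAGA complex, had 43.3, 43.7 and 42.8 after amiodarone and 53.4, 55.1 and 55.3 in controls (log2 fold change -0.33, SE 0.029, limma adjusted p = 1.19e-06). Its relative KAT2B (PCAF), at a far lower level, was higher at 3.90 ± 0.551 against 2.93 ± 0.0907 in controls.

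KAT14, of the ATAC complex, had 5.75, 5.59 and 5.84 in amiodarone libraries and 9.0, 9.03 and 7.82 in controls (log2 fold change -0.51, SE 0.059, limma adjusted p = 1.19e-05), with 16.7% of its exonic bases shared with PET117 on the same strand. KAT5 (TIP60), the acetylase of DNA damage signalling and of the autophagy kinase ULK1, was the acetyltransferase with the largest rise, at 32.3, 34.9 and 36.1 after amiodarone against 23.3, 26.8 and 24.1 in controls (log2 fold change 0.46, SE 0.054, limma adjusted p = 1.33e-05). The groups did not overlap, but 38.6% of the exonic bases of KAT5 lie opposite RNASEH2C. KAT8 (MOF), the H4K16 acetylase, was lower at 25.6 ± 1.86 against 29.4 ± 1.41 in controls. KAT6A was lower by -0.15 in log2 fold change, a call that ended under median-of-ratios scaling, and KAT6B and KAT7 were not called.

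Of 9 HDAC genes that passed the filter, 7 were lower (77.8%, against 44.8% of all tested genes) and 0 higher, with a median log2 fold change of -0.21. Under median-of-ratios scaling 5 of the 9 were lower, against 38.9% of all tested genes, and with equal sums all 9, against 51.6%. Without the filter HDAC9 was tested too and called higher, at values of at most 0.34 in every library. All 4 class I enzymes, the nuclear deacetylases, were lower, and remained so under both scalings. HDAC1 had 47.2, 46.5 and 45.6 in amiodarone libraries and 75.3, 77.8 and 73.5 in controls (ratio 0.614, log2 fold change -0.69, SE 0.030, limma adjusted p = 5.09e-09). HDAC2, its partner in the SIN3, NuRD and CoREST complexes, had 47.4, 47.4 and 50.5 after amiodarone and 73.7, 70.4 and 70.5 in controls (log2 fold change -0.55, SE 0.034, limma adjusted p = 7.03e-08). HDAC3, the enzyme of the NCOR complexes, had 33.5, 34.8 and 35.4 after amiodarone and 42.3, 44.5 and 44.8 in controls (log2 fold change -0.34, SE 0.035, limma adjusted p = 5.02e-06). HDAC8, the deacetylase of the cohesin subunit SMC3, had 9.19, 8.74 and 8.26 after amiodarone and 11.3, 11.4 and 12 in controls (log2 fold change -0.37, SE 0.050, limma adjusted p = 4.32e-05).

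Within class I, the change was unequal. The HDAC1 to HDAC3 ratio was 1.41, 1.34 and 1.29 after amiodarone and 1.78, 1.75 and 1.64 in controls. That of HDAC1 to HDAC2 shifted less, without overlap, at 0.995, 0.980 and 0.902 after amiodarone and 1.02, 1.11 and 1.04 in controls. Summed over the 4 genes, class I values were 137, 137 and 140 in amiodarone libraries and 203, 204 and 201 in controls. The class IIa sums were closer together, at 38.0, 37.3 and 39.1 after amiodarone against 40.2, 41.9 and 41.6 in controls for the 3 tested class IIa genes. Among class II genes, the signal-responsive repressors HDAC4 (-0.21) and HDAC7 (-0.11) and the polyamine deacetylase HDAC10 (-0.18) were called lower, while HDAC5 and the tubulin deacetylase HDAC6 were not called. The call of HDAC7 ended under median-of-ratios scaling, without the filter, and without amiodarone replicate 2 or 3 or control replicate 2 or 3. That of HDAC10, which shares 55.8% of its exonic bases with MAPK12 on the same strand, ended after the same scaling and without control replicate 3 (limma adjusted p = 0.0631).

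The sirtuins changed within a narrow range. Of 6 tested, SIRT3, SIRT6 and SIRT7 were lower and SIRT1 and SIRT2 higher, all by under 1.5-fold on the log2(value + 1) scale and in shares near those of all tested genes (44.8% lower, 33.5% higher). SIRT3, the mitochondrial deacetylase named in the study's title, had 5.36, 5.81 and 5.28 in amiodarone libraries and 6.40, 6.85 and 6.83 in controls. The groups did not overlap, with a log2 fold change of -0.25 (SE 0.054, limma adjusted p = 0.00156). SIRT6, a chromatin deacetylase of H3K9 and H3K56, had 24.9, 23.6 and 21.6 after amiodarone and 26.8, 28.2 and 28.9 in controls (log2 fold change -0.25, SE 0.050). SIRT7, the nucleolar sirtuin, had 14.0, 13.7 and 14.6 after amiodarone and 17.6, 17 and 17 in controls (log2 fold change -0.27, SE 0.040).

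SIRT1, the nuclear deacetylase of p53 and histones, had 7.76, 8.45 and 8.02 in amiodarone libraries and 6.93, 7.44 and 7.29 in controls, a small upward call (log2 fold change 0.14, SE 0.051, limma adjusted p = 0.0232). It ended after scaling to equal sums (adjusted p = 0.289) and without amiodarone replicate 2 (0.0874) or control replicate 1 (0.0854). SIRT2, the cytoplasmic sirtuin, had 32.9, 30.5 and 31.7 after amiodarone and 26.7, 29.03 and 27.9 in controls (log2 fold change 0.18, SE 0.041), and its call ended after scaling to equal sums (limma adjusted p = 0.0504). SIRT5, the mitochondrial desuccinylase, had 9.70, 9.30 and 9.57 after amiodarone and 8.08, 8.99 and 9.31 in controls, overlapping at the edge and not called. It was called higher under median-of-ratios scaling (log2 fold change 0.17, limma adjusted p = 0.0152) and without control replicate 3 (0.14, adjusted p = 0.0470), and 16.1% of its exonic bases lie opposite another gene. By level within the amiodarone libraries the order was SIRT2, SIRT6, SIRT7, SIRT5, SIRT1 and SIRT3. SIRT2 and SIRT6 were the highest pair in both groups and overlapped in the controls, SIRT2 being above SIRT6 in all 3 amiodarone libraries.

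Of 7 arginine methyltransferases 4 were lower and 2 higher (57.1% and 28.6%, against 44.8% and 33.5% of all tested genes), and the median log2 fold change was -0.10. After scaling to equal sums none was called higher, against 27.1% of all tested genes. PRMT6, which places H3R2me2a and opposes H3K4 methylation, had 4.49, 3.98 and 4.28 in amiodarone libraries and 9.25, 8.43 and 8.65 in controls. It had the most negative log2 fold change of the 71 members (-0.90, SE 0.057, limma adjusted p = 9.61e-08), with a ratio of means of 0.484. PRMT7, the monomethylating enzyme, had 9.66, 8.25 and 8.46 after amiodarone and 14.4, 14.4 and 14.5 in controls (log2 fold change -0.66, SE 0.055, limma adjusted p = 9.08e-07). PRMT5, the main symmetric dimethylase, had 48.0, 50.7 and 50.04 after amiodarone and 63.8, 66.1 and 65.4 in controls (log2 fold change -0.39, SE 0.031), with 27.1% of its exonic bases opposite PRMT5-AS1.

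PRMT1, the main asymmetric dimethylase, was the member with the highest value, and it moved little, at 186 ± 2.42 after amiodarone and 196 ± 3.68 in controls. Its call (log2 fold change -0.07, limma adjusted p = 0.0152) ended under median-of-ratios scaling (adjusted p = 0.945), with the variance trend left out of the fit (0.0807) and without control replicate 3 (0.0760). PRMT9, which methylates a splicing factor, had 4.51, 4.51 and 3.96 after amiodarone and 3.82, 3.79 and 3.42 in controls (log2 fold change 0.19, SE 0.065, limma adjusted p = 0.0218), a call that ended with equal sums, without a filter, and without amiodarone replicate 1 or 2 or control replicate 3. PRMT2 was higher by 0.12 in log2 fold change, a call that ended after scaling to equal sums, and PRMT3 was not called (-0.10, limma adjusted p = 0.0621).

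The 5 members below the filter were HDAC9, HDAC11, KDM4D, KDM5D and SIRT4. SIRT4 stood at 0.943 ± 0.0473 after amiodarone and 0.673 ± 0.0351 in controls, HDAC11 at 0.980 ± 0.236 and 0.723 ± 0.0473, HDAC9 at 0.307 ± 0.0306 and 0.193 ± 0.00577, and KDM4D at 0.280 ± 0.1 and 0.493 ± 0.127. KDM5D is Y-linked and its level is not given. When the filter was dropped, SIRT4 (log2 fold change 0.22, limma adjusted p = 0.00440) and HDAC9 (0.13, adjusted p = 0.00605) were called higher and KDM4D lower (-0.22, adjusted p = 0.0435), and HDAC11 was not called (0.19, adjusted p = 0.102).

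**Figure D4:**
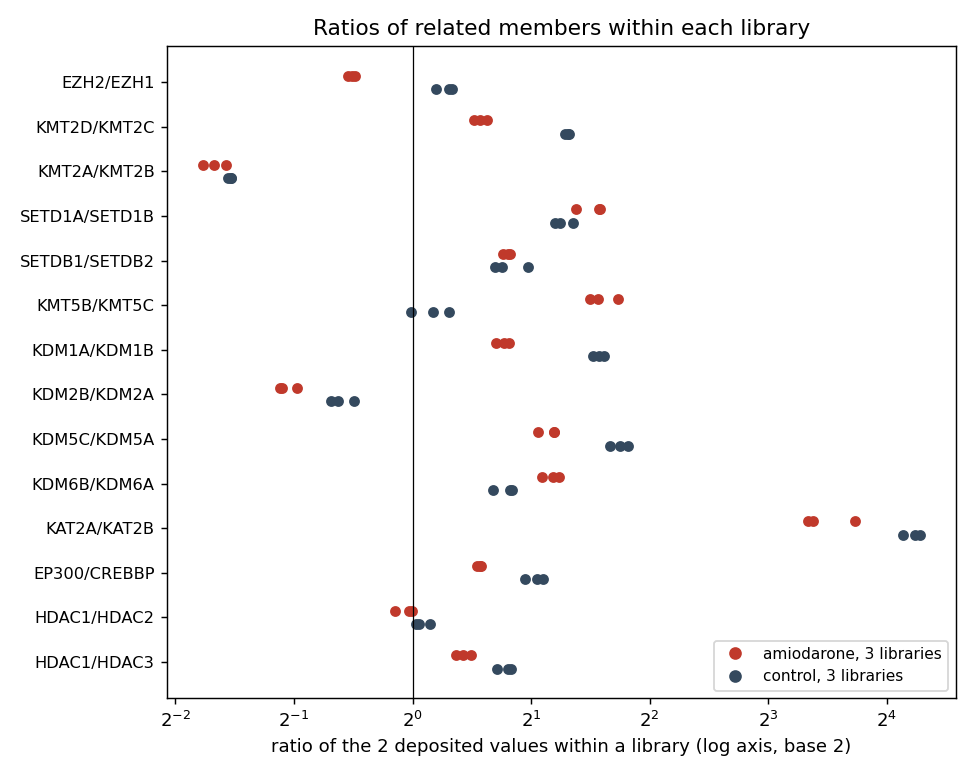
Ratio of the deposited values of 2 related members within each library, on a log axis of base 2, for 14 pairs in 3 amiodarone and 3 control libraries. EZH2/EZH1 lies below 1 in amiodarone libraries and above 1 in controls, and SETDB1/SETDB2 is the pair whose groups overlap.

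Partner and related genes outside the symbol rule were counted from lists that hold them by function. Of 16 other histone methyltransferases 12 were lower and 1 higher, against 44.8% lower and 33.5% higher of all tested genes. SUV39H1, the H3K9 trimethylase of heterochromatin, averaged 4.34 ± 0.176 after amiodarone and 11.4 ± 0.657 in controls, and NSD2, an H3K36 dimethylase, 9.44 ± 0.452 and 19.3 ± 0.375. The single higher one was NSD3 (13.2 ± 0.908 and 12 ± 0.0723). Of 12 subunits of the KMT2 and SETD1 complexes 8 were lower, among them MEN1, which tethers KMT2A (22.4 ± 1.51 after amiodarone, 37.4 ± 0.864 in controls), and CXXC1, the CpG-binding subunit of SETD1 (10.9 ± 0.601 and 18.0 ± 0.599), and RBBP5 alone was higher (10.3 ± 0.454 and 9.0 ± 0.540).

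Of 8 further subunits of PRC2 4 were lower and 3 higher, near the 44.8% and 33.5% of all tested genes. The list holds accessory subunits and the histone chaperones RBBP4 and RBBP7 of the core. EPOP stood at 2.65 ± 0.234 after amiodarone and 8.36 ± 0.0551 in controls. RBBP7 stood at 32.3 ± 1.44 and 57.0 ± 1.06, and RBBP4 at 28.0 ± 0.754 and 39.0 ± 0.208, both called lower. The Tudor protein PHF1 was higher at 39.1 ± 2.28 against 22.8 ± 1.32 in controls, and MTF2, its relative, at 18.0 ± 0.391 against 13.9 ± 0.364. Among 6 other tested demethylases and hydroxylases 3 were lower and 2 higher, also near these shares. JMJD6 stood at 20.9 ± 1.04 after amiodarone and 14.3 ± 0.844 in controls and JMJD1C at 7.01 ± 0.317 and 4.53 ± 0.365, while the ribosomal oxygenase RIOX1 (2.75 ± 0.142 and 4.79 ± 0.345) and PHF8 (9.20 ± 0.335 and 11.4 ± 0.532) were lower.

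Of 31 subunits of the HDAC complexes 14 were lower and 10 higher (45.2% and 32.3%), shares like the 44.8% and 33.5% of all tested genes. CHD4, the remodeller of NuRD, stood at 18.6 ± 0.881 after amiodarone and 41.3 ± 1.30 in controls and MTA2 of the same complex at 35.7 ± 0.573 and 47.6 ± 0.412. Higher were ZMYM2, a CoREST partner (22.6 ± 0.637 and 13.9 ± 0.361), and ARID4A of SIN3 (12.4 ± 0.491 and 7.61 ± 0.284). Of 35 acetyltransferases outside the rule and acetyltransferase partners 16 were lower and 9 higher (45.7% and 25.7%), also near the shares of all tested genes. HAT1, the acetylase of newly made H4, stood at 19.7 ± 0.442 after amiodarone and 28.0 ± 0.699 in controls and the scaffold TRRAP at 4.36 ± 0.178 and 7.32 ± 0.0529, while the NuA4 subunits EPC1 (7.03 ± 0.369 and 3.82 ± 0.438) and EPC2 (9.20 ± 0.362 and 6.28 ± 0.0306) were higher.

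Readers of these marks are set beside the same 44.8% lower and 33.5% higher of all tested genes. Of 18 tested acetyl-lysine readers and related bromodomain or YEATS proteins 12 were lower and 5 higher (66.7% and 27.8%), with TRIM28, the partner of SETDB1, at 104 ± 1.44 after amiodarone and 200 ± 4.4 in controls, MLLT1 at 19.8 ± 0.652 and 37.2 ± 1.2, BAZ1A at 18.3 ± 0.651 and 12 ± 0.656, and ATAD2B at 6.34 ± 0.380 and 3.76 ± 0.0961. Of 17 methyl-lysine readers and related proteins 10 were lower and 2 higher (58.8% and 11.8%), with the Polycomb chromobox genes CBX6 at 9.44 ± 0.121 after amiodarone and 20.7 ± 0.535 in controls and CBX2 at 5.13 ± 0.456 and 15.1 ± 0.519. MPHOSPH8, an H3K9me3 reader of the HUSH complex, was higher at 16.9 ± 0.526 against 15.1 ± 0.470. Among 8 partners of arginine methylation 4 were lower and 2 higher, near the shares of all tested genes. WDR77, the obligate partner of PRMT5, stood at 11.5 ± 0.266 after amiodarone and 17.7 ± 0.343 in controls and COPRS at 13.5 ± 0.395 and 19.4 ± 0.889. BTG1, an antiproliferative protein that binds PRMT1, was higher at 27.7 ± 0.101 against 12.2 ± 0.410 in controls, and TDRD3, a reader of methylarginine, at 8.24 ± 0.533 against 5.16 ± 0.277.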

How the data were processed

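Stranded mRNA libraries, 3 amiodarone and 3 control, were made from phenol-extracted RNA per the labels' protocols. GRCh38.p12, featureCounts, STAR 2.5.3a and fastp 0.23.4 are listed, with neither roles nor order, per the submitters' processing notes. The authors deposited 1 value per gene and library whose unit the file headers do not state. The deposited values are treated as RPKM (sums of 534485.6 to 574483.1 differ between libraries), and whether counting used strand is not given in the sources used here. Steps between low values of genes under 1200 exonic bases were best met at depths of 16000000 to 18200000 reads or fragments, with 48.3% to 60.1% of values within 0.15 of a whole step, where an arbitrary step gives 30% and the step was chosen to raise that share. Whole reads were not recovered, so no counting intervals are given.

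Values were used as deposited. A gene was tested where 3 or more libraries reached a value of 1, with limma 3.58.1 in R 4.3.3 (lmFit, eBayes with trend) on log2(value + 1), a scale that understates changes of low genes, with Benjamini-Hochberg adjustment over 11445 genes. Members, lists and tests were chosen with earlier results of these data known. Values of each library are given for all tested sirtuins, the PRC2 genes and, per other class, the up to 4 called members with the largest absolute log2 fold change and a higher group mean of at least 3, and KDM7A, below that minimum, was singled out after its values were seen. From each list of related genes, up to 2 called genes per direction with the smallest adjusted p are named. The result of 1 such gene is not reported here. Ratios within libraries were compared with an exact permutation test (SciPy 1.17.1). Coordinates and exon overlaps come from GENCODE 29, with overlaps over 15% given. 26 symbols turned into dates were restored by gene ID. Alternatives were 2 pseudocounts, 2 filters, 2 scalings, a replicate block, no trend, a test against a 1.2-fold change, and leaving out each library.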

Additional observations from a re-analysis of the deposited data

How the results depend on the processing

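Leaving out 1 library gave 14 to 18 members called higher (17 with all libraries), 36 to 39 called lower (39), 1 to 1 higher and 10 to 11 lower by at least 1.5-fold, and 8346 to 8487 genes called in all. Apart from the test against a 1.2-fold change there were 14 alternatives, and 44 of the 56 called members kept their call in each one that tested them. The other 12 are HDAC7, HDAC10, KAT6A, KDM5B, KDM6A, KMT2C, PRMT1, PRMT2, PRMT9, SETD4, SIRT1 and SIRT2. At a minimum value of 5 only 64 members were tested, and the called members HDAC4, KAT2B, KDM7A and PRMT9 had no test there. Against a 1.2-fold change, 5 members were called higher, 18 lower, and 4472 genes in all (1844 higher, 2628 lower). After scaling to equal sums 11 members were called higher, where 27.1% of all tested genes were. Members at least 1.5-fold higher numbered 2 at a pseudocount of 0.1, 2 with median-of-ratios scaling, and 0 at a minimum value of 5.

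Class medians of log2 fold change moved with the scaling. Under median-of-ratios scaling they were -0.15 (HDACs), -0.14 (PRC2), -0.04 (acetyltransferases), -0.04 (arginine methyltransferases), 0.01 (lysine demethylases, a turned sign), -0.11 (lysine methyltransferases) and -0.005 (sirtuins), and with equal sums, in the same order, -0.28, -0.29, -0.18, -0.18, -0.14, -0.25 and -0.15. At a minimum value of 5 they were -0.26 (HDACs), -0.17 (acetyltransferases), -0.24 (arginine methyltransferases), -0.20 (lysine demethylases) and -0.22 (lysine methyltransferases). Calls were gained by KAT7, KDM1B, KDM5A, SETD7 and SIRT5 (higher) under median-of-ratios scaling, by CREBBP, EZH1, HDAC5, HDAC6, PRMT3 and SUZ12 (lower) with equal sums, by KDM5A (higher) and PRMT3 (lower) without the variance trend, by HDAC5 (lower) and SETD7 (higher) without amiodarone replicate 3 and by SIRT5 (higher) without control replicate 3. The HDAC median was -0.25 at a pseudocount of 0.1, and the sirtuin median turned to 0.11 without a filter, where SIRT4 enters.

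Members that were not called and changed sign did so at small values. Under median-of-ratios scaling SETD9 was 0.01, EZH1 0.01, SUZ12 0.05, CREBBP 0.02, HDAC6 0.01 and SETD5 0.06, and with equal sums KAT7 was -0.05 and KDM1B -0.01. Without amiodarone replicate 1, SETD9 was 0.02, SUZ12 0.02 and SETD5 0.01. Without amiodarone replicate 2, SETD5 was 0.01, where SETD9 was -0.09 and SUZ12 -0.06. SETD5 was 0.002 without control replicate 1 and 0.01 without control replicate 3, where SETD9 was 0.03. The cause of these changes was not tested beyond the construction of each alternative.

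No deviation shared by same-numbered libraries was seen: their deviations correlated at -0.155, -0.018 and -0.023, and 0 of 3 amiodarone libraries correlated best with its own number. With 3 libraries per group, this cannot show whether same-numbered libraries were handled together. With the replicate number as a block, 17 members were called higher, 38 lower and 8770 genes in all, HDAC7 being the call that ended (adjusted p = 0.0746).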
